A study of Rattus norvegicus with 20 samples.

Results

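The genes of the proteasome were followed through the arcuate nucleus of the hypothalamus in 20 female Sprague-Dawley rats killed on postnatal day 15. The members were the genes on the array whose symbols begin with Psma, Psmb, Psmc, Psmd, Psme, Psmf or Psmg and end in a number. Of 48 such genes, 46 were measured, among 17086 measured genes in all, where a gene counted as measured if in some condition all 4 samples had a probe for it well above the local background. The members not measured were Psma8, an alpha subunit of the testis, whose 3 probes were above background in 4, 4 and 3 of 20 samples, and Psmb11, the catalytic subunit of the thymus, whose 2 probes were above background in 0 and 7 of 20. Psmb8 was above background in 17 of 20 samples, and every other measured member had each of its probes above background in all 20.

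Each condition held 4 rats. SNS rats were born to mothers given saline before birth, had no spasms and received saline as pups. BNS rats differed from them by prenatal betamethasone, a synthetic glucocorticoid given to the mother in 2 doses of 0.4 mg/kg on gestational day 15. BYS, BYA and BYP rats had the same prenatal betamethasone and also spasms triggered with N-methyl-D-aspartate (NMDA) on postnatal days 12, 13 and 15, a model of infantile spasms. BYS pups were treated with saline, BYA pups with adrenocorticotropic hormone (ACTH) and BYP pups with PMX53, an antagonist of the complement receptor C5ar1, on days 13 to 15 by the labels. All spasm groups therefore carry betamethasone, and spasms without it were not analysed here. The litter of each rat is not given in the sources used here, so the p-values measure the spread between these samples, some of which may be littermates.

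Proteasomes break down proteins that carry ubiquitin chains. The core particle is a barrel of alpha and beta rings with the cutting sites inside, and the 19S regulatory particle caps it, with a ring of ATPases that unfolds the substrate and further subunits that bind and remove ubiquitin. In cells exposed to interferon, and in immune cells all the time, the catalytic subunits Psmb5, Psmb6 and Psmb7 are replaced by Psmb8, Psmb9 and Psmb10 to give the immunoproteasome, which is known for making peptides for class I antigen presentation. Other members assemble the particle (Psmg1 to Psmg4 for the core, Psmd5, Psmd9 and Psmd10 for the ATPase ring) or open or block the core (Psme1 to Psme4 and Psmf1).

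The 46 measured members comprised 7 alpha and 7 beta subunits of the constitutive core, the 3 immunoproteasome subunits, 6 ATPases and 11 other subunits of the 19S particle, 7 assembly chaperones and 5 activators or inhibitors. The arcuate nucleus markers Pomc, Agrp, Npy and 6 others were all measured, with a mean log2 level of 11.9 to 12.6 across the 20 samples. The arrays of a condition shared a slide and no 2 conditions did, while BYA replicate 3 was on a further one, so the slide and the condition cannot be told apart. Signals exceeded the background by a median ratio of 15.9 in both BNS and BYS, of 9.12 in BYP, 7.48 in BYA and 6.89 in SNS, and the part of this difference in the results was not tested. Within a condition, the samples of a member spread by a median SD of 0.202 on the log2 scale, against 0.199 for all genes, from 0.0991 for Psmc1 to 0.384 for Psmb7. All levels here are log2 intensities of a gene's own probes, and levels are compared only between samples of the same gene.

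Prenatal betamethasone without spasms was set against saline in BNS and SNS. The members moved in both directions. Psmc1, Psmd4, Psma7, Psme1, Psmg1 and Psmc6 were higher in BNS, by 0.74 to 0.50 on the log2 scale, and Psmd11, Psma2, Psmd7, Psmf1, Psmb10, Psmb1 and Psmc3 were lower, by −0.77 to −0.33. These were 13 of 46 members at an adjusted p under 0.05 by limma, or 28.3%, beside 28.6% of all 17083 genes tested in that comparison. The share of members called was thus close to that of all genes. By direction, 15.1% of all genes were called higher and 13.4% lower. The median change of the members was −0.14, against −0.044 for all genes, and the median size of a change regardless of its sign was 0.246 for members and 0.249 for all genes. Of the 46 members, 16 were fitted higher and 30 lower in BNS, and the same split over all genes is not given here. At an unadjusted p under 0.05 there were 21 members, or 45.7%, beside 41.4% of all genes. In tissue pieces of this kind, fewer cells that express a gene and less RNA of it per cell cannot be told apart.

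How many members were called, and on which side, depended on the scaling. Scaling all channels to 1 common median, without quantile normalization, gave 4 members called, 0 higher and 4 lower, and the processed signals of the scanner software gave 5, of which 2 were higher and 3 lower. The share of all genes called also fell, from 28.6% to 15.5% with the first and 13.7% with the second. Under scaling to the median, the 6 members called higher above stayed above 0 but were not called, with Psmc1 at 0.31, Psmc6 at 0.27, Psmd4 at 0.16, Psma7 at 0.15, Psme1 at 0.11 and Psmg1 at 0.095 (limma adjusted p from 0.426 to 0.821). Of the members called lower above, Psmb10 (−0.78, limma adjusted p = 0.0533), Psmc3 (−0.78, 0.0616) and Psmf1 (−0.72, 0.0729) were not called under that scaling. With the processed signals, Psmd11 (−0.42, adjusted p = 0.155), Psmd7 (−0.24, 0.206), Psma7 (0.30, 0.101), Psmd4 (0.28, 0.177) and Psmg1 (0.16, 0.457) lost their calls. So did Psme1 (0.31, 0.171), Psmc3 (−0.090, 0.664), Psmb1 (0.10, 0.659) and Psmf1 (0.010, 0.968). Scaling to the median moved the median of all genes by itself to −0.14 and that of the members to −0.47. With the processed signals, the median of all genes was 0.015 and that of the members −8.27e-06. Loess normalization within arrays used the 9 arrays with both channels from this series, and so left out BYA replicates 3 and 4. There, 6 members were called higher and 9 lower, and 30.1% of all genes were called. The median of all genes was −0.037 and that of the members −0.11.

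**Figure D1:**
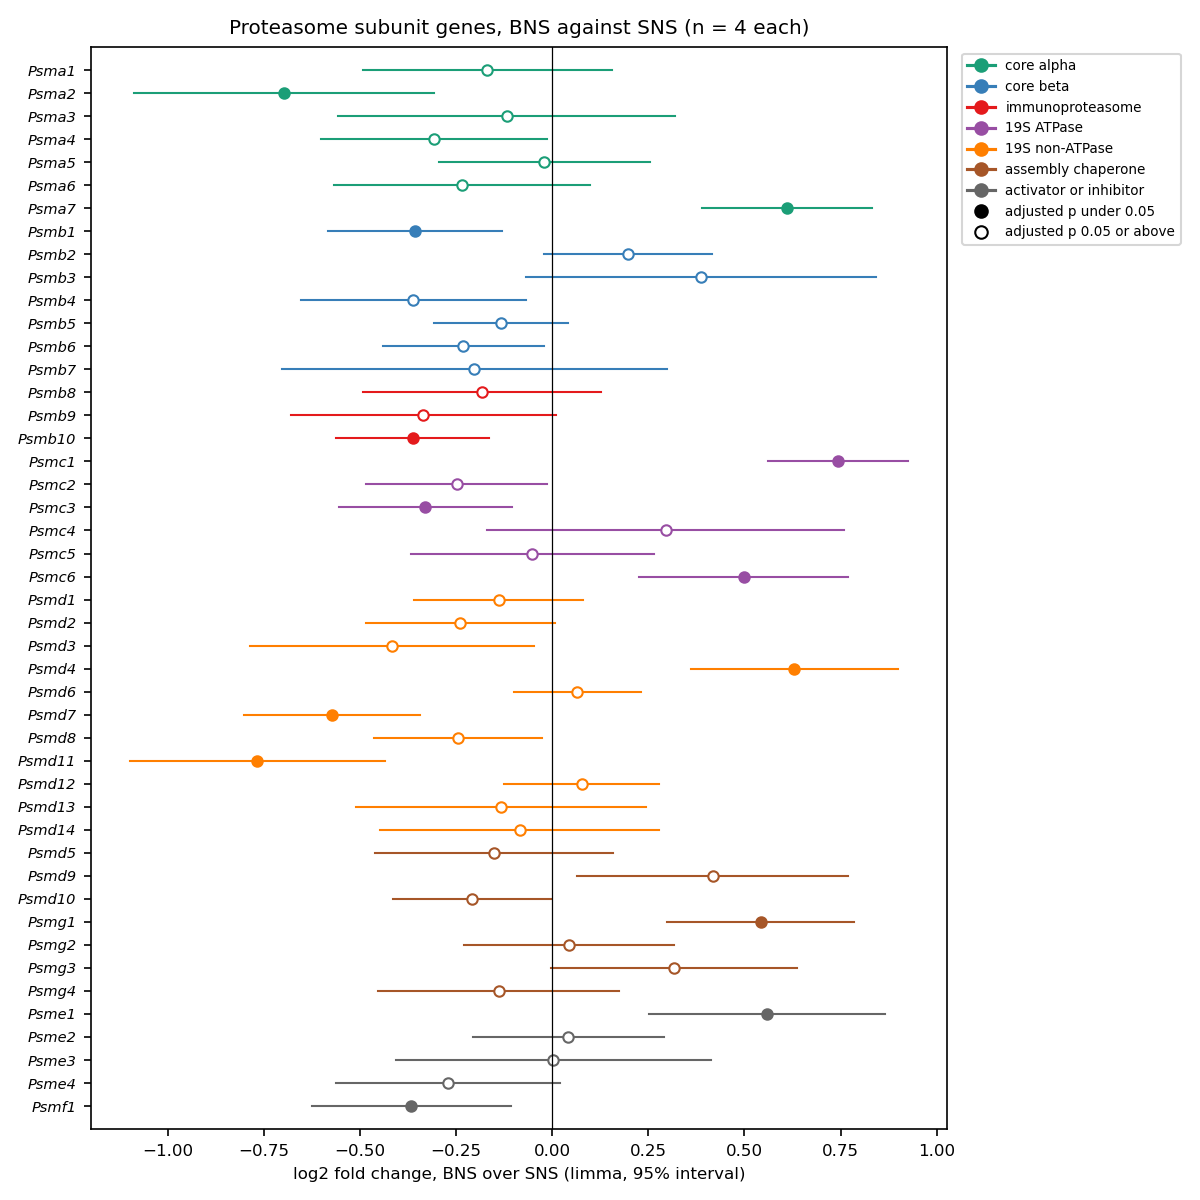
Log2 fold change of each of the 46 measured members between BNS and SNS (x axis; points, with 95% intervals from limma), grouped and coloured by class, with 4 samples in each condition. Filled points are the 13 members called, which lie on both sides of 0 from −0.77 for Psmd11 to 0.74 for Psmc1.

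The largest rise was that of Psmc1, an ATPase of the 19S base, whose probe lies at chr6:124393071-124393130 in the rn4 build. Its levels in SNS replicates 1 to 4 were 12.63, 12.62, 12.71 and 12.49, and those in BNS were 13.42, 13.38, 13.22 and 13.41. No SNS value reached the lowest value of the 16 betamethasone samples, 13.06. The difference between BNS and SNS was 0.74 ± 0.087 (SE, n = 4 and 4; limma adjusted p = 8.05e-06). Psmc6, the second ATPase that rose, had levels of 10.11, 10.01, 10.28 and 10.06 in SNS and of 10.80, 10.57, 10.56 and 10.53 in BNS. These values did not overlap, and the difference was 0.50 ± 0.13 (adjusted p = 0.00869). Psmc3, an ATPase of the same ring, went the other way, with 13.54, 13.56, 13.66 and 13.27 in SNS and 13.36, 13.05, 13.13 and 13.16 in BNS. The values overlapped, since BNS replicate 1 lay above SNS replicate 4, and the change of −0.33 ± 0.11 (adjusted p = 0.0281) was lost without SNS replicate 2 or 3 or BNS replicate 2 or 3 (adjusted p from 0.0671 to 0.0836). The ATPases Psmc2, Psmc4 and Psmc5 were not called. For Psmc4 the SNS samples themselves fell apart, at 12.38 and 12.39 on the array of replicates 1 and 2 and at 11.18 and 11.29 on that of replicates 3 and 4.

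Among the other subunits of the 19S particle, Psmd4, a receptor for ubiquitin chains, was higher in BNS. Its levels were 13.37, 13.31, 13.38 and 13.27 in SNS and 14.02, 13.87, 13.99 and 13.97 in BNS. The SNS samples lay below all 16 betamethasone samples, and the difference from BNS was 0.63 ± 0.13 (adjusted p = 0.00159). Psmd11, a subunit of the lid that braces the particle against the core, was lower, at 10.64, 10.53, 10.65 and 11.02 in SNS and 9.89, 10.06, 9.83 and 9.99 in BNS. This fall of −0.77 ± 0.16 (adjusted p = 0.00174) was the largest among the members. Psmd7, the partner of the deubiquitinase Psmd14, had levels of 12.56, 12.63, 12.69 and 12.79 in SNS and of 12.07, 12.13, 12.14 and 12.03 in BNS. The BNS values lay close together and below every SNS value, with a change of −0.57 ± 0.11 (adjusted p = 0.000897). Psmd14 itself was not called, with −0.085 ± 0.17 (adjusted p = 0.737) and an interval from −0.45 to 0.28. In all, 8 of the 11 subunits of this class were not called, and 3 of the 11 were fitted higher in BNS and 8 lower.

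Of the alpha subunits of the core, which form the outer rings and the gate, Psma7 rose. It had levels of 13.84, 13.99, 13.86 and 13.80 in SNS and of 14.56, 14.61, 14.39 and 14.37 in BNS. The SNS samples were again below all 16 betamethasone samples, and the difference was 0.61 ± 0.10 (adjusted p = 0.00037). Psma2 fell, from 13.01, 13.02, 13.17 and 12.95 in SNS to 11.90, 12.09, 12.91 and 12.46 in BNS. Its BNS samples ranged over 1 log2 unit, with the array of replicates 3 and 4 nearer to SNS, and the difference was −0.70 ± 0.19 (adjusted p = 0.01). The methods' t-test with Benjamini-Hochberg adjustment did not call Psma2 (adjusted p = 0.14). Of the 7 beta subunits of the constitutive core, Psmb1 was the 1 member called, with 12.93, 13.32, 12.89 and 12.99 in SNS and 12.67, 12.63, 12.60 and 12.81 in BNS. The groups did not overlap, and the difference was −0.36 ± 0.11 (adjusted p = 0.0197), but it lost the call without SNS replicate 2 (adjusted p = 0.0742) or BNS replicate 2 (0.0622), and turned to 0.10 with the processed signals. The SNS samples stood apart from all 16 betamethasone samples in 5 members, 10.9% beside 11% of all genes. Psmc1, Psmd4 and Psma7 were lower in SNS, and Psma2 and Psmd10 were higher.

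Among the assembly chaperones, Psmg1 was the 1 member called. It pairs with Psmg2 to start the alpha ring. Its levels were 12.94, 12.81, 12.95 and 12.90 in SNS and 13.44, 13.38, 13.63 and 13.31 in BNS. All BNS values lay above all SNS values, and the difference was 0.54 ± 0.12 (adjusted p = 0.00221). Its partner Psmg2 was not called, at 0.043 ± 0.13 (adjusted p = 0.826). Psmd9, a chaperone of the ATPase ring, was not called at 0.42 ± 0.17 (adjusted p = 0.0701). That value rests on 1 of its 2 probes, because the second had 1 missing sample. Taken alone, the second probe gave 0.69 ± 0.12 (adjusted p over probes = 0.000318).

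Psme1 and Psme2 together form the interferon-inducible activator that opens the gate of the core. Psme1 had levels of 12.85, 12.98, 13.44 and 13.65 in SNS and of 13.84, 13.72, 13.85 and 13.74 in BNS. The groups did not overlap, but the SNS samples split by array, with replicates 3 and 4 close to BNS. The difference was 0.56 ± 0.15 (adjusted p = 0.00913) as the mean of 2 probes that went opposite ways. One probe gave 1.32 ± 0.21 (adjusted p over probes = 0.000163) and the brighter one −0.20 ± 0.13 (0.234), so that no direction of Psme1 holds for both. Psme2 was at 0.042 ± 0.12 (adjusted p = 0.813). Psmf1, an inhibitor of the core particle, was lower in BNS, with 11.71, 11.78, 12.09 and 12.30 in SNS and 11.60, 11.85, 11.54 and 11.41 in BNS. These values overlapped, and the difference of −0.37 ± 0.12 (adjusted p = 0.0336) was lost without SNS replicate 3 or 4 or BNS replicate 1, 3 or 4 (adjusted p from 0.0649 to 0.119) and was 0.010 with the processed signals. Psme3, the nuclear activator, and Psme4 were not called. Near copies of Psma3, Psmb3 and Psme2 are also on the array, so the values of these 3 genes may include signal from the copies.

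**Figure D2:**
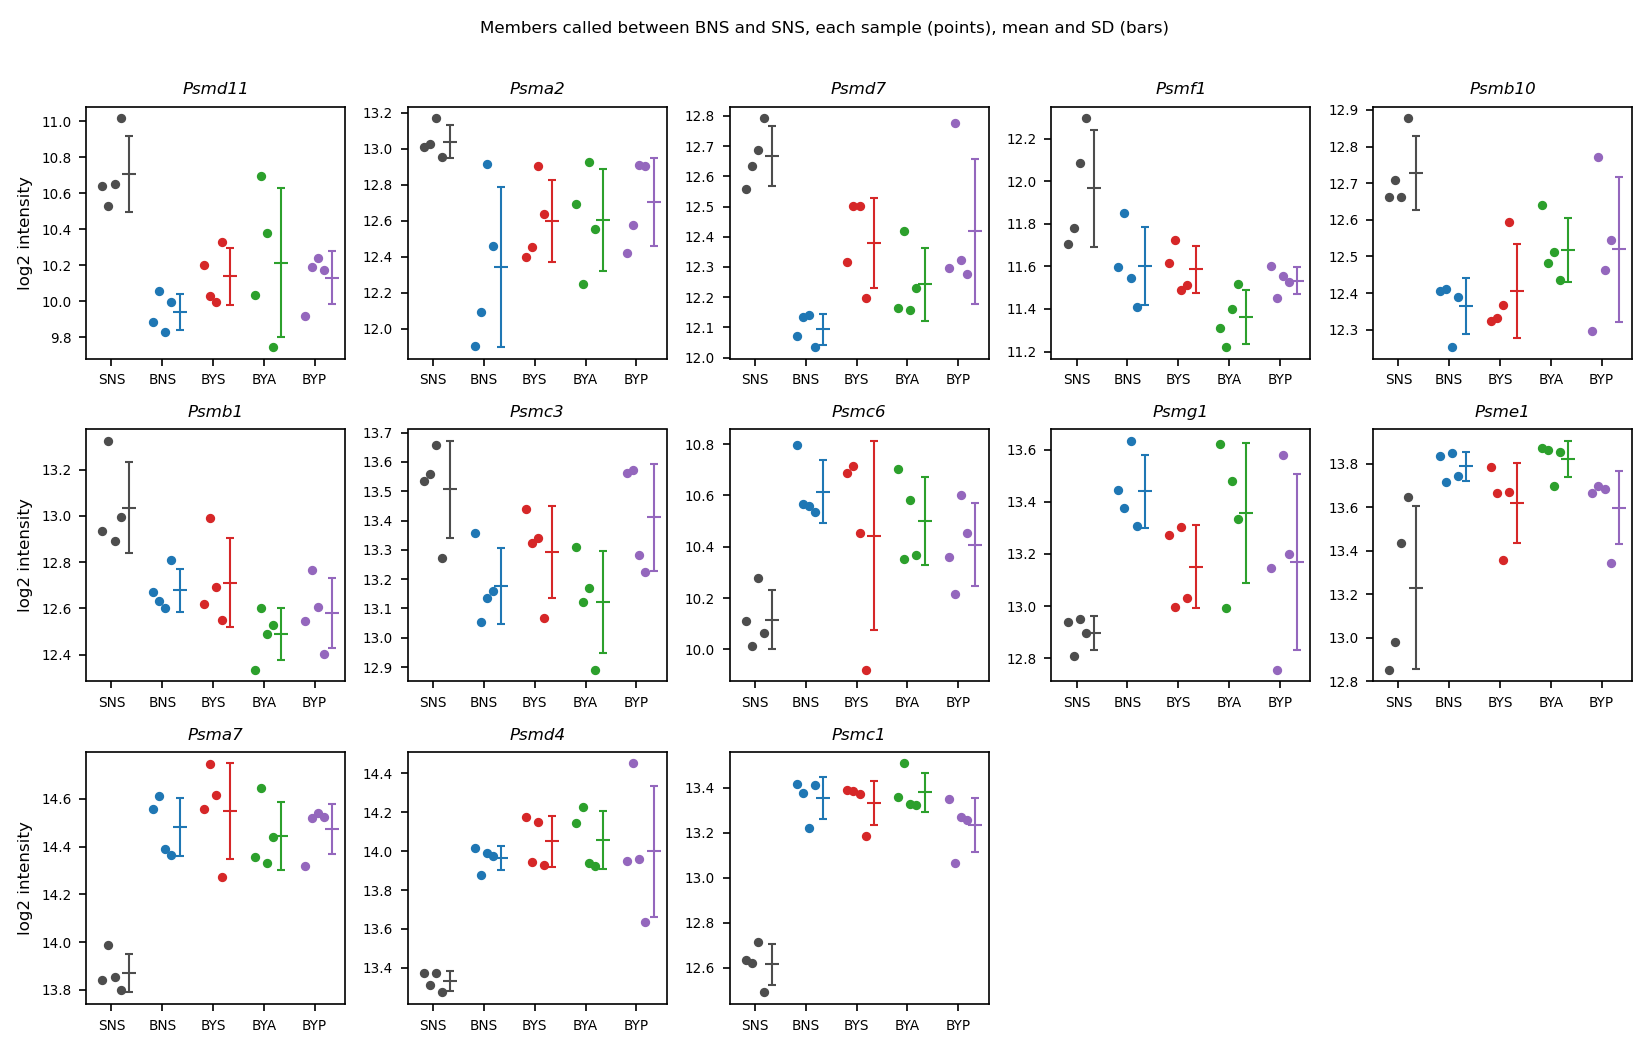
Log2 intensity (y axis, a scale of its own in each panel) of the 13 members called between BNS and SNS in each of 20 samples (points), with the mean and SD of each condition (bar and whiskers), ordered from the largest fall to the largest rise. The 4 SNS samples of Psmc1, Psmd4 and Psma7 lie below all 16 samples of the betamethasone conditions, and those of Psma2 lie above them.

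The SNS samples split by array in part of the members. The means of replicates 1 and 2 and of replicates 3 and 4 lay over 0.5 apart for 7 of 46 members (15.2%, beside 15.5% of all genes), most for Psmc4 at 1.15. In BNS, this held for 1 member (2.17%, beside 4.28%), in BYS for 3 (6.52%, beside 5.02%) and in BYP for 3 (6.52%, beside 7.29%). With the array as a random block, 9 members were called between BNS and SNS, and Psmb10, Psmb1, Psmc3 and Psmf1 were not among them (adjusted p from 0.0559 to 0.0921). The share of all genes called in that fit is not given here.

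The deviation from each gene's own mean was averaged over the members of a class in each sample, as a description with no test. The 11 non-ATPase subunits of the 19S particle were at 0.105 to 0.161 in the SNS samples and at −0.144 to 0.0574 in the 16 others, with no overlap. The 3 immunoproteasome subunits were at 0.0646 to 0.311 in SNS and at −0.293 to 0.0272 in BNS, also without overlap, while BYP values reached 0.145. The constitutive core and the ATPases overlapped between SNS and BNS. Of the class medians between BNS and SNS, those of the alpha subunits (−0.17), beta subunits (−0.20), immunoproteasome subunits (−0.33) and non-ATPase subunits (−0.14) were below 0, and those of the ATPases (0.12), assembly chaperones (0.043) and activators or inhibitors (0.00344) above it. With the processed signals, the median was 0.020 for the alpha, 0.000151 for the beta, −0.10 for the immunoproteasome and −0.037 for the non-ATPase subunits. Scaling to the median turned the ATPases, assembly chaperones and activators or inhibitors to −0.33, −0.10 and −0.40. Whether the class means stay apart under other scalings, and how often other sets of genes separate SNS, was not tested.

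**Figure D3:**
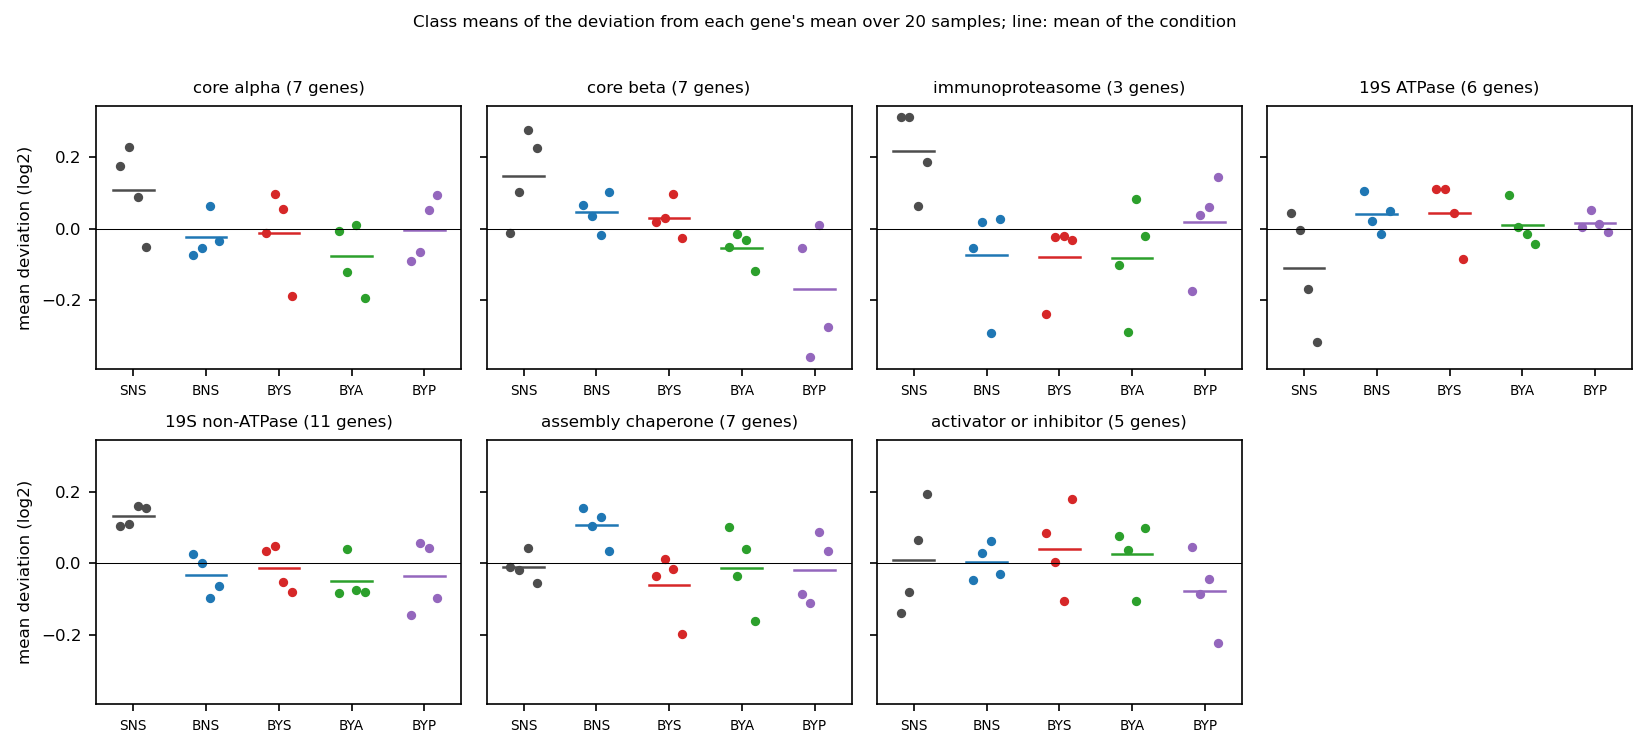
Mean over the members of each class of the deviation of a gene from its own mean over 20 samples (y axis, log2), for each sample of the 5 conditions (points), with the mean of the condition (line). The SNS samples of the 11 non-ATPase subunits, at 0.105 to 0.161, lie above all others.

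The immunoproteasome subunits Psmb8, Psmb9 and Psmb10 carry their own cutting sites and are the interferon-inducible members. The promoter stretches of the 3 genes are shown because their levels are given next, and the short windows because they hold the interferon response element core or the glucocorticoid element, betamethasone being a glucocorticoid. They come from RefSeq on the GRCr8 build and are written on the strand of the gene. For the 3 genes, only bases before the start that lie outside the annotated span of the gene itself are given. Overlap with other genes was not checked. Capitals mark CCAAT read on the opposite strand in Psmb8, an NF-kB-like motif on either strand in Psmb9 (GGG and CC with 5 bases of any kind between them), and the interferon response element core on either strand in Psmb10, Psma4, Psmb3, Psmd7 and Psme2 (GAAA, 2 bases of any kind and GAAA again). In Psma6 they mark the glucocorticoid response element (GNACA and TGTNC with 3 bases of any kind between them).
Psmb8 (chr20:4657050-4657281, minus strand): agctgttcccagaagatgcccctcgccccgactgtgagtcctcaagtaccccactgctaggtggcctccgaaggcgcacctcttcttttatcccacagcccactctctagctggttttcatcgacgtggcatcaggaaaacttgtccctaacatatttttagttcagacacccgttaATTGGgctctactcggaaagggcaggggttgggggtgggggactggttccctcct
Psmb9 (chr20:4668750-4668951, plus strand): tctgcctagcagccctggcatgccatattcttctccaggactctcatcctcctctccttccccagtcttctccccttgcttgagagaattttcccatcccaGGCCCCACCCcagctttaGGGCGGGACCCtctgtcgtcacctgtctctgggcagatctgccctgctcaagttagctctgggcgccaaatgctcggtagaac
Psmb10 (chr19:50743293-50743542, minus strand): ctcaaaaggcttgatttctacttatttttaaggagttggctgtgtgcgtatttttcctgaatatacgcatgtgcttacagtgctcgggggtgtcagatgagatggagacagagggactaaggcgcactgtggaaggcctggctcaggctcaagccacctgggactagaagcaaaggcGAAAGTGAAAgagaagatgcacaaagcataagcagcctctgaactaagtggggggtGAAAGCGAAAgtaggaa
Psmd7 (chr19:52411365-52411390, minus strand): ggcagcccTTTCCCTTTCtcaagatg
Psme2 (chr15:33052787-33052812, minus strand): tggagagtGAAAGCGAAAgctggggc
Psmb3 (chr10:83193636-83193661, plus strand): cagtgactTTTCACTTTCcgctttcc
Psma4 (chr8:64236278-64236303, plus strand): acagaagaGAAAATGAAAgtggagtg
Psma6 (chr6:78514117-78514145, plus strand): cctcttttGGACAATATGTTCtccagaat

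The promoter table held 42 of the 46 measured members and 33469 promoters in all, each from 250 bases before to 50 bases after the start, of which the 250 bases before it were searched on both strands. The interferon response element core was found in the promoters of 5 members (11.9%, beside 3.41% of all promoters). Psmb10 held it at 73 to 64 and again at 17 to 8 bases before the start, and Psme2 at 53 to 44, inside the annotated span of Psme2 itself. Neither Psmb8 nor Psmb9 held these letters in the window. The glucocorticoid response element was found in Psma6 alone (2.38%, beside 0.373%), at 222 to 210 bases before the start and inside the annotated span of Psma6 itself. CCAAT, the box of NF-Y, was in 20 members (47.6%, beside 34%), TGANNNNGC, the core of the antioxidant response element that Nfe2l1 and Nfe2l2 bind, in 17 (40.5%, beside 34.7%), and the NF-kB-like motif in 24 (57.1%, beside 42.3%). The last 3 are short and can overlap one another. Of the members with the interferon response element core, Psmb10 and Psmd7 were called lower in BNS than in SNS, and Psma4 (adjusted p = 0.107), Psmb3 (0.185) and Psme2 (0.813) were not called. Psma6 was not called either, with −0.23 ± 0.16 (adjusted p = 0.269).

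Psmb10, which replaces Psmb7, was the 1 immunoproteasome subunit called between BNS and SNS. Its levels, from a probe at chr19:35777711-35777770 in rn4, were 12.66, 12.71, 12.66 and 12.88 in SNS and 12.41, 12.41, 12.25 and 12.39 in BNS. The groups did not overlap, and the difference was −0.36 ± 0.095 (adjusted p = 0.00899). It was −0.33 to −0.40 whichever sample of either condition was left out. The call was lost with the array as a block and with scaling to a common median (−0.78, limma adjusted p = 0.0533). In the spasm groups, Psmb10 was at 12.32, 12.33, 12.37 and 12.59 in BYS, at 12.64, 12.48, 12.51 and 12.43 in BYA and at 12.30, 12.77, 12.46 and 12.55 in BYP. Of the 4 BYS samples, 3 lay within the range of BNS, the BYA samples lay between BNS and SNS, and the BYP samples reached from one to the other.

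Psmb9, which replaces Psmb6, has its probe at chr20:4806341-4806400 in rn4. It had levels of 9.93, 10.15, 9.80 and 9.92 in SNS and of 9.58, 9.77, 9.40 and 9.71 in BNS. These values did not overlap, which was so for 17 of 46 members beside 32.5% of all genes, but the difference of −0.33 ± 0.16 was not called (adjusted p = 0.13) and was 0.069 with the processed signals. In BYS it was at 9.26, 9.62, 9.82 and 9.68, in BYA at 9.47, 9.16, 9.96 and 9.47 and in BYP at 9.37, 9.20, 9.74 and 9.67. The 4 betamethasone conditions overlapped one another.

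Psmb8, which replaces Psmb5, lies beside Psmb9 in the genome, with its probe at chr20:4787980-4788039 in rn4. It had levels of 8.86, 8.60, 8.25 and 8.29 in SNS and of 8.37, 8.40, 7.99 and 8.51 in BNS, with a difference of −0.18 ± 0.15 (adjusted p = 0.364). The groups overlapped, and the sign turned to 0.0058 when channels were scaled to a common median. It was at 8.22, 8.50, 8.27 and 8.15 in BYS, at 8.11, 8.02, 8.30 and 8.55 in BYA and at 8.33, 8.67, 8.50 and 8.74 in BYP.

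The constitutive partners were not called between BNS and SNS. Psmb5, the subunit with chymotrypsin-like activity, changed by −0.13 ± 0.083 (adjusted p = 0.23), Psmb6, with caspase-like activity, by −0.23 ± 0.10 (0.0897), and Psmb7, with trypsin-like activity, by −0.20 ± 0.24 (0.543). From SNS to BNS, the log2 difference between an immunoproteasome subunit and its partner moved by −0.049 for Psmb8 and Psmb5, by −0.10 for Psmb9 and Psmb6 and by −0.16 for Psmb10 and Psmb7, with SDs within a condition of 0.118 to 0.297. Scaling to a common median turned the first to 0.63 and the second to 0.21. From BYS to BYP it moved by 0.50, 0.011 and 0.77 for the same pairs. In the pair with Psmb7 the SD in BYP was 0.907, since Psmb7 was at 13.58, 12.49, 13.00 and 11.77 in BYP and at 13.47, 13.19, 13.45 and 13.37 in BYS. These shifts of differences were not tested.

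**Figure D4:**
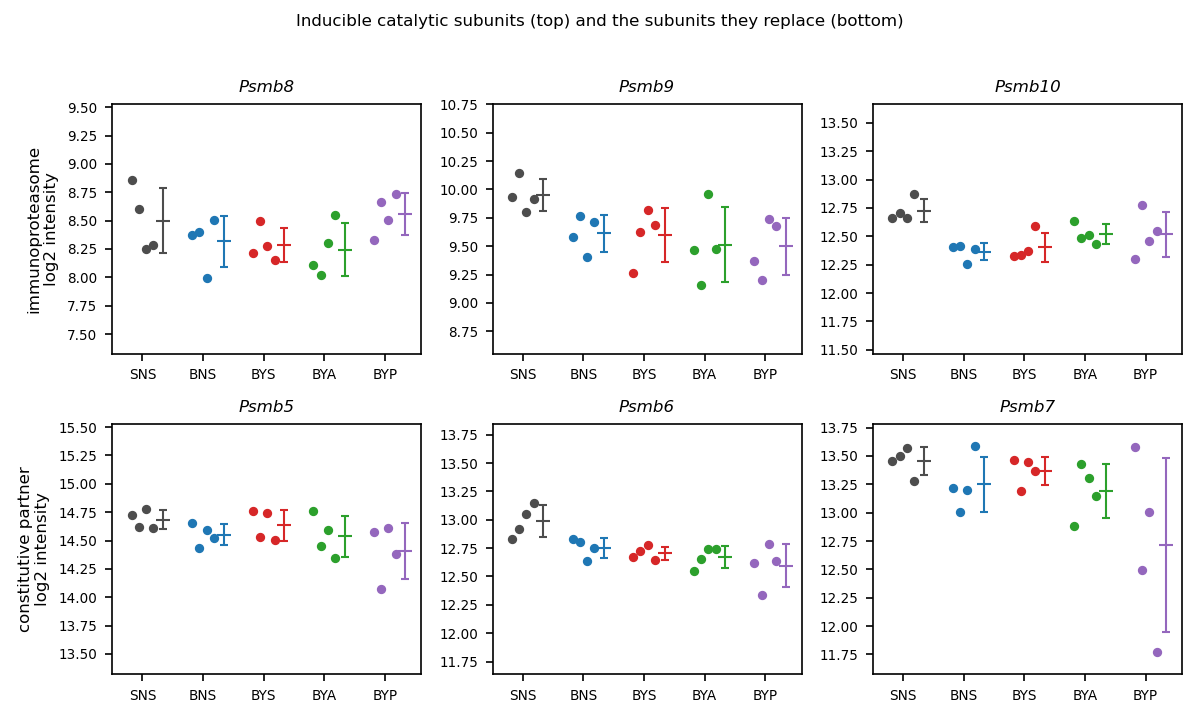
Log2 intensity (y axis, 2.2 units in each panel) of Psmb8, Psmb9 and Psmb10 (top) and of Psmb5, Psmb6 and Psmb7, the subunits they replace (bottom), in each of 20 samples (points), with the mean and SD of each condition (bar and whiskers). The SNS values of Psmb9 and Psmb10 lie above those of BNS without overlap, and Psmb7 spreads from 11.77 to 13.58 in BYP.

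Spasms after betamethasone were examined by setting BYS against BNS. No member was called by limma, beside 0.0293% of all genes, and the lowest adjusted p was 0.592, for Psmd7. At an unadjusted p under 0.05 there were 3 members, 6.52% beside 6.92% of all genes, and the methods' t-test gave 3 unadjusted and 0 after Benjamini-Hochberg adjustment. Psmd7 was at 12.32, 12.50, 12.50 and 12.20 in BYS, above all 4 BNS values, with a difference of 0.28 ± 0.11. Psmg1 was at 13.27, 13.00, 13.30 and 13.03, below all 4 BNS values, with −0.29 ± 0.12 (adjusted p = 0.612). These were the 2 members without overlap, beside 6.43% of all genes. In both genes, all 4 BYS values lay between those of BNS and those of SNS. Psmg4, which pairs with Psmg3, differed by −0.36 ± 0.15 (adjusted p = 0.652) with overlap. All 46 intervals lay within a change of 2-fold in either direction.

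ACTH was set against saline in rats with spasms by comparing BYA with BYS. No member was called, nor was any other gene (0% of all), and the lowest adjusted p among members was 0.553. Psma6, an alpha subunit, was the 1 member with an unadjusted p under 0.05 (2.17%, beside 8.07% of all genes), and the methods' t-test gave 2 unadjusted and 0 adjusted. Psma6 was at 14.27, 14.64, 14.45 and 14.61 in BYS and at 14.17, 13.84 and 14.28 in BYA, whose replicate 4 was missing and dropped from its fit. The values overlapped at their edges, and the difference was −0.39 ± 0.16 (adjusted p = 0.553). Psmc5 was the 1 member without overlap, beside 4.11% of all genes. All 46 intervals lay within 2-fold.

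PMX53 was compared with saline in BYP and BYS. No member was called, beside 0.0351% of all genes, with a lowest adjusted p of 0.444. Psmb7, Psmb5, Psmd8, Psmd13 and Psmg2 had an unadjusted p under 0.05 (10.9% of members, beside 8.5% of all genes), while the methods' t-test gave 0 members before and after adjustment. Psmb7 changed by −0.66 ± 0.24 (adjusted p = 0.444), with an interval from −1.16 to −0.16, the 1 interval among 46 that went past 2-fold. Its BYP samples spread from 11.77 to 13.58 and took in the whole range of BYS. Psmg2 was at 9.29, 9.22, 9.44 and 9.39 in BYP and at 9.50, 10.03, 9.51 and 9.48 in BYS. It was the 1 member without overlap, beside 4.71% of all genes, at −0.30 ± 0.13 (adjusted p = 0.557). Under scaling to a common median, 7 members were called, 1 higher and 6 lower, with the median of all genes at −0.17 and 16.5% of all genes called.

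**Figure D5:**
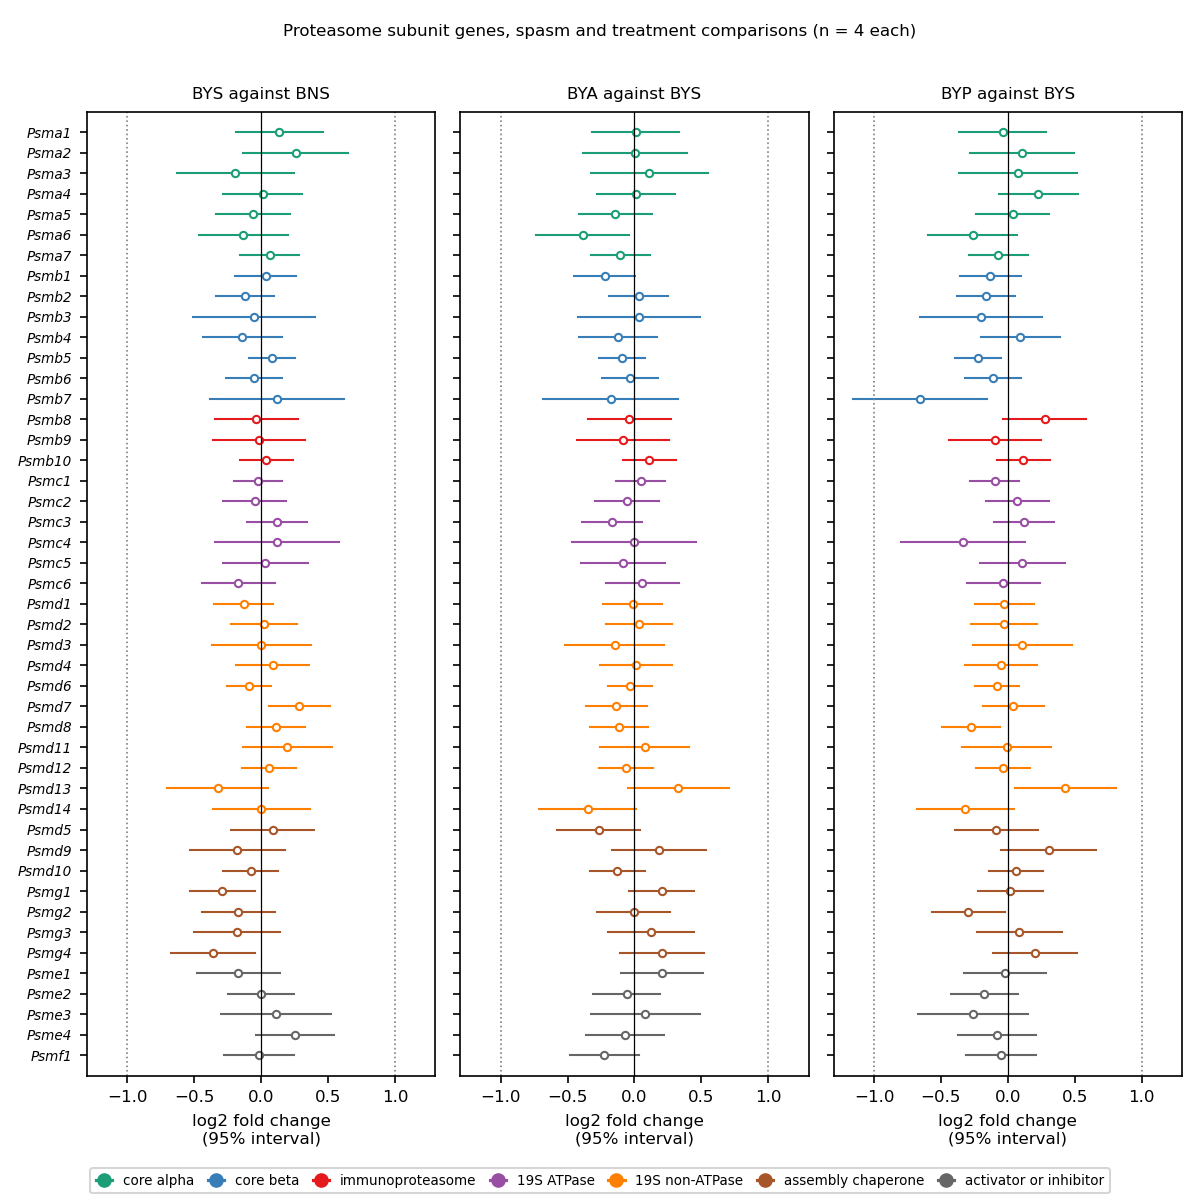
Log2 fold change of each of the 46 measured members (x axis; points, with 95% intervals from limma) in BYS against BNS, BYA against BYS and BYP against BYS, with 4 samples in each condition. Open points mark members that were not called, which is all of them, and dotted lines mark changes of 2-fold, passed by the interval of Psmb7 in BYP against BYS alone.

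The remaining comparisons share samples with those above. BYP against BYA gave 0 members called (beside 0.158% of all genes; 3 members, beside 13.6%, at an unadjusted p under 0.05 and 1 by the methods' t-test unadjusted), with a lowest adjusted p of 0.245 for Psmc3. The values of 1 member did not overlap, beside 6.05% of all genes. BYA against BNS gave 0 members called (beside 0.117%; 2 members, beside 13.1%, at an unadjusted p under 0.05 and 3 by the methods' t-test unadjusted), with a lowest adjusted p of 0.218 for Psma6, at −0.52 ± 0.16 over 3 BYA samples, and 4 members without overlap, beside 8.65%. BYP against BNS gave 0 members called (beside 1.5%; 8 members at an unadjusted p under 0.05, or 17.4% beside 17.8% of all genes, and 2 by the methods' t-test unadjusted), and 6 members without overlap, beside 13.2%. There Psmg2 had the lowest adjusted p, 0.0754, at −0.46 ± 0.13, with its BNS values at 9.91, 9.82, 9.64 and 9.83 above all 4 BYP values.

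Genes that work with the proteasome were taken from 4 lists, of which 60 genes were measured. Of these 60, 47 had a probe above background in all samples, and the others lacked one. Which genes these were is not given here. Between BNS and SNS, 14 of these 60 were called, 6 higher and 8 lower, beside the 28.6% of all genes. The count was 5 with the array as a random block, for which the share of all genes called is not given here. It was also 5 with the processed signals, where 13.7% of all genes were called. Of 18 associated and shuttle factors, 4 were higher and 4 lower, beside 15.1% and 13.4% of all genes. Ufd1, which with Vcp extracts ubiquitinated proteins from membranes and complexes, was at 10.11, 10.07, 10.66 and 10.75 in SNS and at 11.35, 11.26, 11.31 and 11.43 in BNS. The groups were well apart, by 0.94 ± 0.14 (adjusted p = 8.85e-05), a call lost with scaling to a common median (0.64, adjusted p = 0.0943). Vcp itself was higher by 0.55 ± 0.16 (adjusted p = 0.0167), with SNS replicate 2 missing and dropped from its fit. Pomp, the maturation factor of the core, was higher by 0.25 ± 0.089 (adjusted p = 0.0467), and Sem1, a small subunit of the 19S lid, by 0.33 ± 0.093 (0.0143). The shuttles Ubqln1 (−0.47 ± 0.14, adjusted p = 0.0167) and Ubqln4 (−0.45 ± 0.12, 0.0113) and Zfand5, an activator of the particle (−0.50 ± 0.091, 0.000661), were lower too.

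Of 10 transcription factors and regulators of proteasome genes, 1 was higher and 3 were lower, beside 15.1% and 13.4% of all genes. Mafk, a small Maf partner of Nfe2l1 and Nfe2l2, was at 7.59, 7.54, 7.74 and 7.80 in SNS and at 8.35, 8.37, 8.18 and 8.44 in BNS, a difference of 0.67 ± 0.14 (adjusted p = 0.00194). The subunits of NF-Y, Nfyb (−0.38 ± 0.11, adjusted p = 0.0147) and Nfyc (−0.61 ± 0.22, 0.042), and Keap1, which holds Nfe2l2 back (−0.48 ± 0.17, 0.0369), were lower. Nfyc lost its call without any 1 of the SNS samples or BNS replicate 1 or 2 (adjusted p from 0.0527 to 0.142). Nfe2l1, the factor that raises proteasome genes when the particle is inhibited, was not called at 0.49 ± 0.20 (adjusted p = 0.0795). Its SNS levels of 10.81, 10.49, 9.85 and 9.67 split by array, and without SNS replicate 1 it was called at 0.71 (0.0114). None of the 6 genes for ubiquitin and its activating enzymes was called (2 at an unadjusted p under 0.05, beside 41.4% of all genes).

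Of 26 measured genes of antigen presentation and the interferon response, 1 was called higher and 1 lower, beside 15.1% and 13.4% of all genes. The one that was lower was Ifnar2, a chain of the interferon receptor (−0.34 ± 0.12, adjusted p = 0.0433). The transporters Tap1 (0.034 ± 0.15) and Tap2 (0.40 ± 0.19, adjusted p = 0.122), which lie near Psmb8 and Psmb9, were not called, nor were B2m (−0.076 ± 0.15) or Irf1 (0.42 ± 0.21, adjusted p = 0.132).

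Between BYP and BNS, 2 of the 60 genes were called, beside 1.5% of all genes, and none was in the other comparisons without SNS. Irf1, an interferon regulatory factor known to act on Psmb8 and Psmb9, was at 8.92 to 9.06 in BNS and at 9.76, 9.85, 10.45 and 9.30 in BYP. The BYP values were all higher, by 0.85 ± 0.21 (adjusted p = 0.0475). Pdia3, which helps to load peptides onto class I molecules, was at 12.12, 11.97, 11.91 and 11.97 in BNS and at 10.03, 10.14, 11.36 and 11.35 in BYP. Its BYP values split by array, and the change was −1.28 ± 0.27 (adjusted p = 0.0285). Both calls were lost whichever BNS sample was left out and without BYP replicate 1 or 2, and that of Irf1 also without BYP replicate 3 (adjusted p from 0.0604 to 0.118). In the same comparison Psmb8, Psmb9 and Psmb10 were not called.

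Some markers of other cells also differed between BNS and SNS. The mean log2 level of 8 microglial markers was 10.97 to 11.02 in SNS and 10.68 to 10.80 in BNS, without overlap, and 1 of them, Cx3cr1, was called, at −0.73 ± 0.16 (adjusted p = 0.00283). The other 7 were not called, P2ry12 at −0.33, C1qc at −0.24, C1qb at −0.23, Aif1 at −0.12, C1qa at −0.083, Itgam at 0.060 and Csf1r at 0.076. The microglial mean was 10.80 to 11.22 in BYS, 10.75 to 11.04 in BYA and 10.93 to 11.18 in BYP. Of 6 lymphocyte markers, 3 were not measured, Cd3e and Cd8a among them, and the other 3 were at 7.95 to 8.18 in SNS and 8.11 to 8.27 in BNS. The 3 endothelial markers measured of 4 reached up to 10.14 in SNS and were at 9.73 to 10.04 in BNS, with overlap, and the 4 astrocyte markers at 10.83 to 11.14 and 10.57 to 10.85. The 2 choroid plexus markers measured of 4 were at 10.59 to 11.32 in SNS and 9.68 to 10.45 in BNS, without overlap. The 4 oligodendrocyte markers overlapped, at 9.11 to 10.81 in SNS and 9.55 to 10.42 in BNS. So did the 2 pituitary markers measured of 4, at 9.40 to 9.87 and 9.41 to 9.94. Of the 2 red blood cell markers measured of 3, Alas2 was higher in BNS, by 0.99 ± 0.29 (adjusted p = 0.0168), and Hbb was at 0.059 ± 0.17 (adjusted p = 0.82). The call of Alas2 was lost without BNS replicate 3 (adjusted p = 0.0591) or 4 (0.0702), with the 8 samples compared alone (0.0501), with median scaling (0.0756) and with the processed signals (0.158). The part of these cells in the differences of the members was not tested.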

How the data were processed

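Members and gene lists were chosen with earlier results of these data known. The authors deposited 1 file per two-colour Agilent array, 11 arrays on 6 slides, each channel holding 1 rat's RNA (2 of 4 in each condition on Cy3). The dye label of BYA replicate 3 does not match the sample order in its raw data name, so its animal is uncertain. Columns of another series (82) were not used. Per the file headers, mean signals, local backgrounds and software-processed signals are intensities (Feature Extraction 11.5.1.1 in the headers, 10.7.3.1 in the labels), and flags have no unit.

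Background was corrected with normexp (offset 50), log2 values of the 20 channels were quantile normalized, outlier spots (1.185%) were dropped, and probes were kept with at least 0.5 of their spots above background in all 4 samples of a condition. Probes of a gene without missing values were averaged. limma 3.58.1 (R 4.3.3) fitted all 20 samples with the dye as covariate, with Benjamini-Hochberg adjustment over all genes in each comparison. Only the limma fit of BNS against SNS was tried on simulated gene values, which had no correlation within an array. The steps before the fit were not simulated. Given in full are the immunoproteasome genes with their partners, Psme1, Psme2, up to 5 members called in each direction and, of the related lists, up to 3 called in each direction with Tap1, Tap2, B2m, Irf1, Nfe2l1 and Nfe2l2. Any member may be named, and other related genes were chosen after their values were seen. Some genes of the lists are not reported here. Replicate numbers did not pair samples (mean correlation 0.0031 for the same number, from −0.239 to 0.280, against −0.00075). Samples on the same array were related, with a mean residual correlation of 0.155 and a fitted array correlation of 0.365. The main fit took the samples of a condition as independent, and the array entered only as an alternative. The number of arrays limits precision.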

Additional observations from a re-analysis of the deposited data

Results flagged for a closer look

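Within the groups of 4 samples, a sample was marked where its gap to the nearest other, divided by the range of the group, exceeded 0.829. This marked 10 of 130 groups of member levels and class means, and chance alone marks about 1 in 20 groups. Psmb10 was at 12.25 in BNS replicate 3, below the others at 12.39 to 12.41, and at 12.59 in BYS replicate 4, above the others at 12.32 to 12.37. Psmc6 was at 10.80 in BNS replicate 1, with the others at 10.53 to 10.57. Psmc1 was at 13.19 in BYS replicate 4, with the others at 13.37 to 13.39. Psme1 was at 13.70 in BYA replicate 3, the sample of uncertain animal, with the others at 13.85 to 13.87, and at 13.35 in BYP replicate 4, with the others at 13.67 to 13.70. Psma7 was at 14.32 in BYP replicate 1, with the others at 14.52 to 14.54, and Psmd7 at 12.78 in BYP replicate 2, with the others at 12.28 to 12.32. Of the class means, the deviation of the immunoproteasome subunits was −0.239 in BYS replicate 1, with the others at −0.0316 to −0.0213, and that of the 19S non-ATPase subunits was 0.0395 in BYA replicate 2, with the others at −0.0845 to −0.0754.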

How the results depend on the processing

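The count of 13 members called between BNS and SNS became 4 with channels scaled to a common median, 5 with the processed signals and 26 with the slide as a random block, and stayed between 9 and 18 under the other alternatives. Of all genes, 28.6% were called as reported, 15.5% with median scaling and 13.7% with the processed signals. That share is not given here for the array block or the methods' t-test, so their counts have no such reference. The count of members was 11 to 15 when 1 sample was left out. With the replicate block it was again 13, and the replicate numbers did not pair the samples. In the other comparisons the count of 0 became 7 with median scaling in BYP against BYS (beside 16.5% of all genes). It became 1 with loess normalization in BYP against BYA (beside 3.32%), a fit that left out BYA replicates 3 and 4. That fit thus differs in its samples as well as in normalization. With the slide as a block, the count became 1 in BYA against BNS and 6 in BYP against BNS. Apart from BYA replicate 3, slide and condition coincide, so a slide block cannot be separated from the condition. Its fitted correlation was −0.128, and no conclusion is drawn from its counts, here or for the related lists. Unadjusted, the methods' t-test gave 3 for BYS against BNS, 2 for BYA against BYS, 1 for BYP against BYA, 3 for BYA against BNS and 2 for BYP against BNS. By limma, the count of members stayed at 0 in each comparison without SNS when 1 sample was left out. Of the 13 members called, Psma2, Psmc1, Psmc6, Psmd11 and Psmd7 were called in 20 of 21 alternatives and Psmf1 in 10, with the slide block counted among the alternatives.

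Median scaling gave class medians between BNS and SNS of −0.62 for the alpha subunits, −0.65 for the beta subunits, −0.33 for the ATPases, −0.64 for the non-ATPase subunits, −0.10 for the assembly chaperones and −0.40 for the activators or inhibitors. The processed signals gave 0.0202 for the alpha subunits, 0.000151 for the beta subunits, −0.10 for the immunoproteasome subunits and −0.0366 for the non-ATPase subunits, and the brightest probe of each gene gave −0.13 for the activators or inhibitors. With 1 sample left out, the medians ranged from −0.28 to −0.11 for the alpha subunits, from −0.0408 to 0.28 for the ATPases, from −0.21 to −0.11 for the non-ATPase subunits and from −0.0416 to 0.15 for the assembly chaperones. Those of the ATPases were below 0 without SNS replicate 3 (−0.0113) or 4 (−0.0408), and that of the chaperones without SNS replicate 1.

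Some single genes between BNS and SNS changed sign. With median scaling, Psmb8 was at 0.00579, Psme2 at −0.40 and Nfe2l2 at −0.0940. With the processed signals, Psmb9 was at 0.0694, Psme2 at −0.0281, Psmb1 at 0.10, Psmf1 at 0.0104, B2m at 0.11 and Nfe2l2 at −0.0356. The brightest probe gave −0.20 for Psme1. With 1 sample left out, Psme2 ranged from −0.0554 (without BNS replicate 3) to 0.128, Tap1 from −0.104 (without SNS replicate 1) to 0.126 and Nfe2l2 from −0.0320 (without SNS replicate 4) to 0.372. The cause of these changes was not tested.

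The alternatives for the related lists and for the differences between partners were added after seeing the data. The count of 14 related genes called between BNS and SNS was 5 with the processed signals, 5 with the array and 27 with the slide as a block, 9 by the methods' t-test with adjustment, and 8 to 12 with 1 sample left out (9 without SNS replicate 1 and 8 without SNS replicate 2). The count of 2 in BYP against BNS was 0 with median scaling, with the array as a block and by the methods' t-test with adjustment, 1 with probes above background in all samples, with the brightest probe and with the 8 samples compared alone, 11 with the slide as a block, 8 by the methods' t-test without adjustment, and 0 to 2 with 1 sample left out. Median scaling gave shifts between BNS and SNS of 0.63 for Psmb8 less Psmb5 and 0.21 for Psmb9 less Psmb6, which was 0.14 with the processed signals. From BYS to BYP the same scaling gave shifts of 1.41 and 0.35 for these pairs.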
